A study of Mus musculus with 19 samples.

Results

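The genes described here are 41 imprinted genes of the mouse, taken as a fixed list, of 26182 genes with a curated RefSeq transcript on the main chromosomes of mm10. All 41 were found by symbol. They fall into 19 imprinted loci, of which 10 hold 2 or more of the listed genes. The readout was SOX3 ChIP-seq of whole testis at postnatal day 7, in 2 replicates, each given as a list of peaks called over input. SOX3 is an SRY-related HMG-box transcription factor found in undifferentiated spermatogonia (uSPG). The mice were wild-type on the C57BL/6J background per the study's methods, and seminiferous tubules of several mice went into each factor ChIP. The labels give the age as day 7, while the methods give day 7 to the day after for factor ChIP. A pair of SOX3 antibodies is named in the labels for every SOX3 library. Tubules at this age hold spermatogonia together with Sertoli and other somatic cells, and a peak list carries no expression values, so the labelled tissue could not be checked against markers here. The lists also do not tell cell types or parental alleles apart.

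Imprinted genes are expressed only or mainly from the maternal or the paternal copy, according to DNA methylation laid down in the germ line of one parent. For some, such as Ube3a in neurons, this holds in certain tissues. The regions that carry this difference from the gametes, the germline differentially methylated regions, lie mostly at promoters that are methylated in the oocyte, and at a few intergenic sites that are methylated in sperm. In the male germ line the inherited methylation is erased in primordial germ cells and the paternal pattern is set before birth, so spermatogonia carry paternal-type imprints on both chromosomes, whereas the somatic cells around them keep one methylated and one unmethylated copy. Many imprinted genes control fetal growth, the placenta or postnatal behaviour, and long non-coding RNAs silence their neighbours at several of the loci.

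Promoter peaks were listed for most of the imprinted genes. A gene was counted as bound at its promoter when a peak overlapped, by 1 bp or more, the 2 kb on either side of an annotated start site. This held for 35 of the 41 genes in replicate 1 (85.4%) against 62.7% of all genes, for 31 in replicate 2 (75.6%) against 54.7%, and for 29 in both (70.7%) against 52.2%. The mean share over the replicates was 80.5% ± 6.90 (SD, n = 2). Another 6 genes had a promoter peak in replicate 1 only (14.6%), 2 in replicate 2 only (4.88%), and 4 in neither. Of all 26182 genes, 16417 had a promoter peak in replicate 1, 14310 in replicate 2 and 13665 in both. Calls of 1 replicate alone thus came mostly from replicate 1 over all genes too. At all 29 genes bound in both replicates a promoter peak of one replicate overlapped one of the other, compared with 97.4% of the 13665 genes bound in both across the genome.

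SOX3 promoter peaks follow CpG content in these lists, so the imprinted genes were also set against genes of like promoters. The CpG ratio is the observed over the expected number of CG dinucleotides within 500 bp of a start site, and the highest value over a gene's start sites was used. The median CpG ratio was 0.717 for the imprinted genes and 0.539 for all genes. Among the other genes, the share bound in both replicates rose from 7.72% at ratios between 0.1 and 0.2 to 96.4% at ratios of 0.9 and above. For each imprinted gene the other genes within 0.05 of its ratio were taken, between 384 and 3627 of them, and the bound share was averaged over the 41 genes. This share was 84.99% in replicate 1, 76.9% in replicate 2 and 75.3% in both. The imprinted genes were therefore bound more often than all genes, and at a share close to that of genes of equal CpG ratio.

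**Figure D1:**
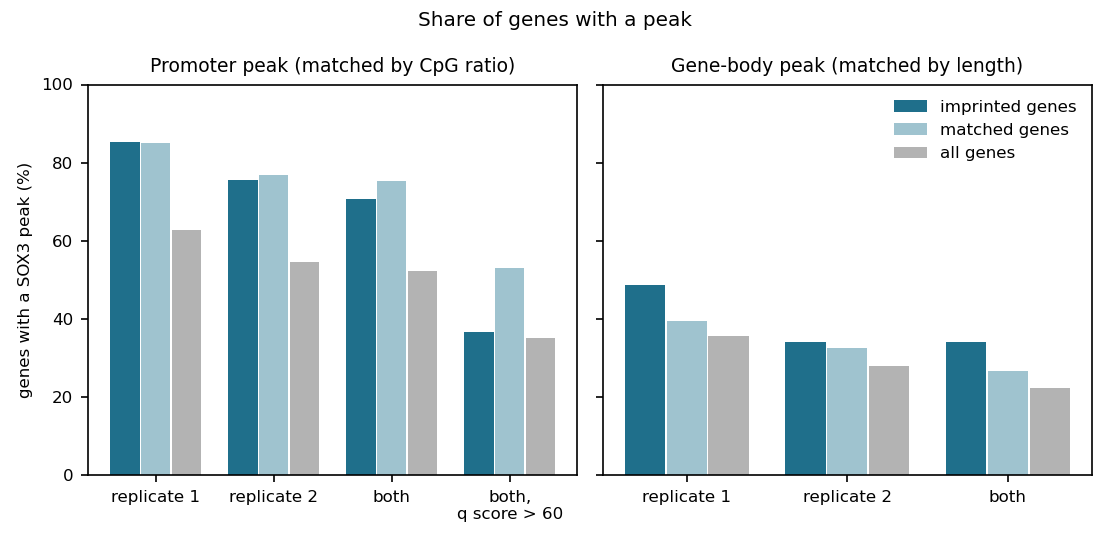
Bars give the share of genes (percent) with a SOX3 peak at the promoter (left) or in the gene body (right), for the 41 imprinted genes, for genes matched to them by CpG ratio or length, and for all 26182 genes. Promoter shares of the imprinted genes lie beside those of matched genes in each replicate, and below them when peaks must have a q score above 60 in both replicates (36.6% against 53.0%).

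**Figure D2:**
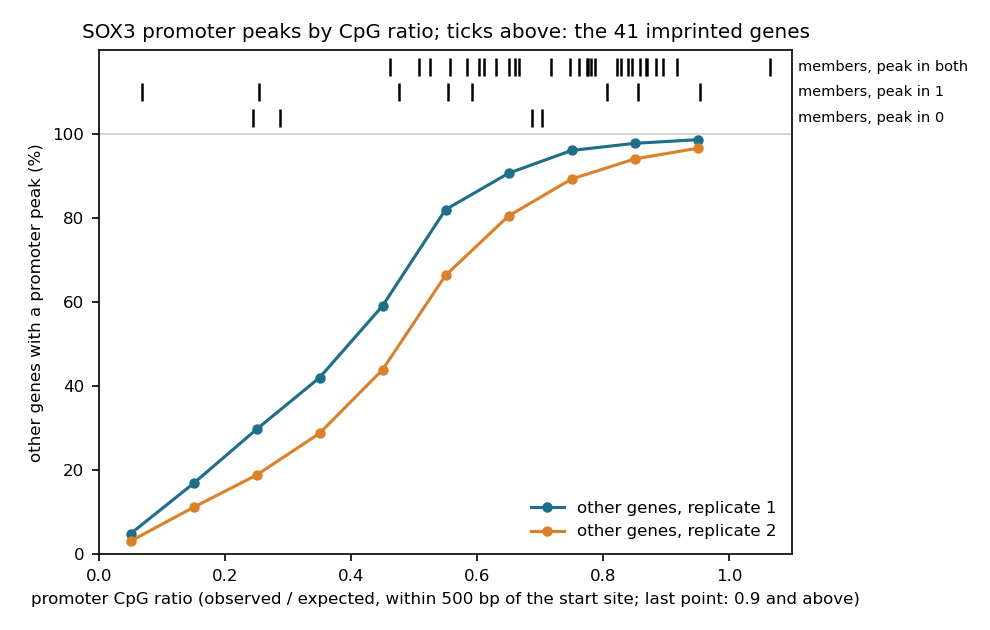
Lines give the percentage of other genes with a promoter peak in each bin of promoter CpG ratio, by replicate, and ticks mark the CpG ratio of each imprinted gene by how many replicates list a promoter peak. The genes with a peak in both replicates start at a ratio of 0.461, while those with a peak in neither lie at 0.245, 0.288, 0.687 and 0.703.

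The promoters that carry these contrasts are shown from the RefSeq promoter table of GRCm38.p6 (mm10), which holds 48 promoters for 33 of the 41 genes. Each runs 5′ to 3′ along the gene's strand from 250 bases before to 50 bases after a start site, and capitals mark CG dinucleotides. Copg2 (chr6:30896745-30897044 on the minus strand, with 25 CG) was among the genes with the strongest peaks, and Peg3 (chr7:6730370-6730669 on the minus strand, 13 CG), Plagl1 (chr10:13090582-13090881 on the plus strand, 26 CG) and Mest (chr6:30737800-30738099 on the plus strand, 17 CG) are oocyte-methylated promoters under a peak in both replicates.
Copg2: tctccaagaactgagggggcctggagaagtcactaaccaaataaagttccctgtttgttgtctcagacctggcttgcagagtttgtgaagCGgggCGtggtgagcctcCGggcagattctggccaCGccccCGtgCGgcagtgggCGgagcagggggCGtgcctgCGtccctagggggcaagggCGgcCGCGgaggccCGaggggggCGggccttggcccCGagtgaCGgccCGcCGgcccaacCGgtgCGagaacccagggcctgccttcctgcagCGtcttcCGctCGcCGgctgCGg
Peg3: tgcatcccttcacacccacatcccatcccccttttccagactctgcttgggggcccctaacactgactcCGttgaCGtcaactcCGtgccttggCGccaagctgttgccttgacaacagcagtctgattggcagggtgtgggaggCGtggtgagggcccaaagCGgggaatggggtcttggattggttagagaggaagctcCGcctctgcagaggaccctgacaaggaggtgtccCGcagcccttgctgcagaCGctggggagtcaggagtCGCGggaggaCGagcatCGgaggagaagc
Plagl1: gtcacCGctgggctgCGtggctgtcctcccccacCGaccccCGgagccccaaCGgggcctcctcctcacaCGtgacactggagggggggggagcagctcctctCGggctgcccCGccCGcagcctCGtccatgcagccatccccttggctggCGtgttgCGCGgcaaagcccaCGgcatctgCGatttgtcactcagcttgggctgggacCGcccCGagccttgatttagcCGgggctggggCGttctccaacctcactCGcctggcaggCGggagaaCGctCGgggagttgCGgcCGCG
Mest: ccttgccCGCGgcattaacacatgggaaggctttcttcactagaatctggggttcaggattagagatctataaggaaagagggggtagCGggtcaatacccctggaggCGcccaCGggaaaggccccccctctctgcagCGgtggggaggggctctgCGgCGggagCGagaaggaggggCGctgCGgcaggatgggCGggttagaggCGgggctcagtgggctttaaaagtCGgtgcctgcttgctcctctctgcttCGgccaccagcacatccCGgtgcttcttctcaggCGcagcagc

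The second set holds start sites with a peak beside them or none. At the second Grb10 start site (chr11:12027922-12028221 on the minus strand, 9 CG) the nearest peaks began close to 1 kb inside the gene, at Snrpn (chr7:60005150-60005449 on the minus strand, 7 CG) a weak peak of 1 replicate lay 254 bp from the start site, and at Nap1l5 (chr6:58907077-58907376 on the minus strand, 17 CG) and Mirg (chr12:109734731-109735030 on the plus strand, 10 CG) no promoter peak was listed.
Grb10: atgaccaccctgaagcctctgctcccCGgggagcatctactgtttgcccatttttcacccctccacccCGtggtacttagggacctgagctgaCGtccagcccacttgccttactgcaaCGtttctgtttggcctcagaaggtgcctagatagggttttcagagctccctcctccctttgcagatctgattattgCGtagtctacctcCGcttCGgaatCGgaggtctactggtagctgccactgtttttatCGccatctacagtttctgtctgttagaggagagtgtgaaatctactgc
Snrpn: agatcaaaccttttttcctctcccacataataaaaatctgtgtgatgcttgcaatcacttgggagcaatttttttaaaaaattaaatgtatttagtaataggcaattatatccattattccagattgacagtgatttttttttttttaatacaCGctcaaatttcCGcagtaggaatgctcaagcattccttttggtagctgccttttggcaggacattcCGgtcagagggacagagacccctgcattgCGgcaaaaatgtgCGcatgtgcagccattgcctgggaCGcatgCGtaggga
Nap1l5: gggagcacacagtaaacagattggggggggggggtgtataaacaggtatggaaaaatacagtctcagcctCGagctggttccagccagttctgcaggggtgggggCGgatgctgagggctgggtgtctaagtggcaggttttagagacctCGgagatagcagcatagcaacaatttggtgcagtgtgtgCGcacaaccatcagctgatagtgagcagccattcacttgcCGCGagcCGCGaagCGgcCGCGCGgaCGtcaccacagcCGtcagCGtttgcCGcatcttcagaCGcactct
Mirg: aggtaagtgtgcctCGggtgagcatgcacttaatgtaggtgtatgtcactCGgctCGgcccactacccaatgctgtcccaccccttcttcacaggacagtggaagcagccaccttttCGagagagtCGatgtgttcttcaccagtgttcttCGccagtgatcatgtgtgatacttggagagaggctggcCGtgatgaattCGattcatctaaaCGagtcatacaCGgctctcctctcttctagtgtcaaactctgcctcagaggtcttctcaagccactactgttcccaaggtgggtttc

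The median number of CG was 15.5 in the 48 promoters of the imprinted genes and 7 in all 32851 promoters of the table. The letters TGCCGC, the core that the imprint-protecting zinc finger protein ZFP57 reads when methylated, stood on either strand in 13 of the 48 (27.1%) and in 11.6% of all promoters. The 13 promoters with TGCCGC belonged to 12 genes. AACAAT, a SOX-type motif, stood in 6 (12.5%, against 10.7% of all) and ACAAAG, another form of it, in 1 (2.08%, against 18.7%). TGCCGC itself holds a CG, and the shares were not set against promoters of like CG number. The part of base composition in these differences was not tested. None of these motifs contains another, though AACAAT and ACAAAG share the run ACAA. Nap1l5, with no peak, held TGCCGC at 2 positions, as did Mest, with a peak in both replicates.

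The strength of a peak is given by its q score, 10 times the −log10 of the false discovery rate, which exceeded 30 for every listed peak, and by the log2 ratio of ChIP over input. Over the imprinted genes with a promoter peak the q score of the strongest one ranged from 31.4 to 469 in replicate 1 (median 94.5, 35 genes) and from 31.2 to 172 in replicate 2 (median 64.9, 31 genes). The other bound genes had medians of 165 and 78.8. Within the group of equal CpG ratio, the imprinted genes stood at a median percentile of 24.0 in replicate 1 and 30.4 in replicate 2, and 25 of 35 and 23 of 31 stood below the 50th. With a q score above 60 asked for in both replicates, 15 imprinted genes remained (36.6%) against 35.2% of all genes and 53.0% of genes of equal CpG ratio. So the imprinted promoters were listed about as often as promoters of equal CpG ratio, and with lower scores than most bound promoters among these. The log2 ratio differed less, with medians of 3.50 for the imprinted genes and 3.67 for the other bound genes in replicate 1, and 2.86 and 2.72 in replicate 2, where the order turned. No test was made of these differences, as there is 1 group of 2 replicates and the genes of a locus share peaks.

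**Figure D3:**
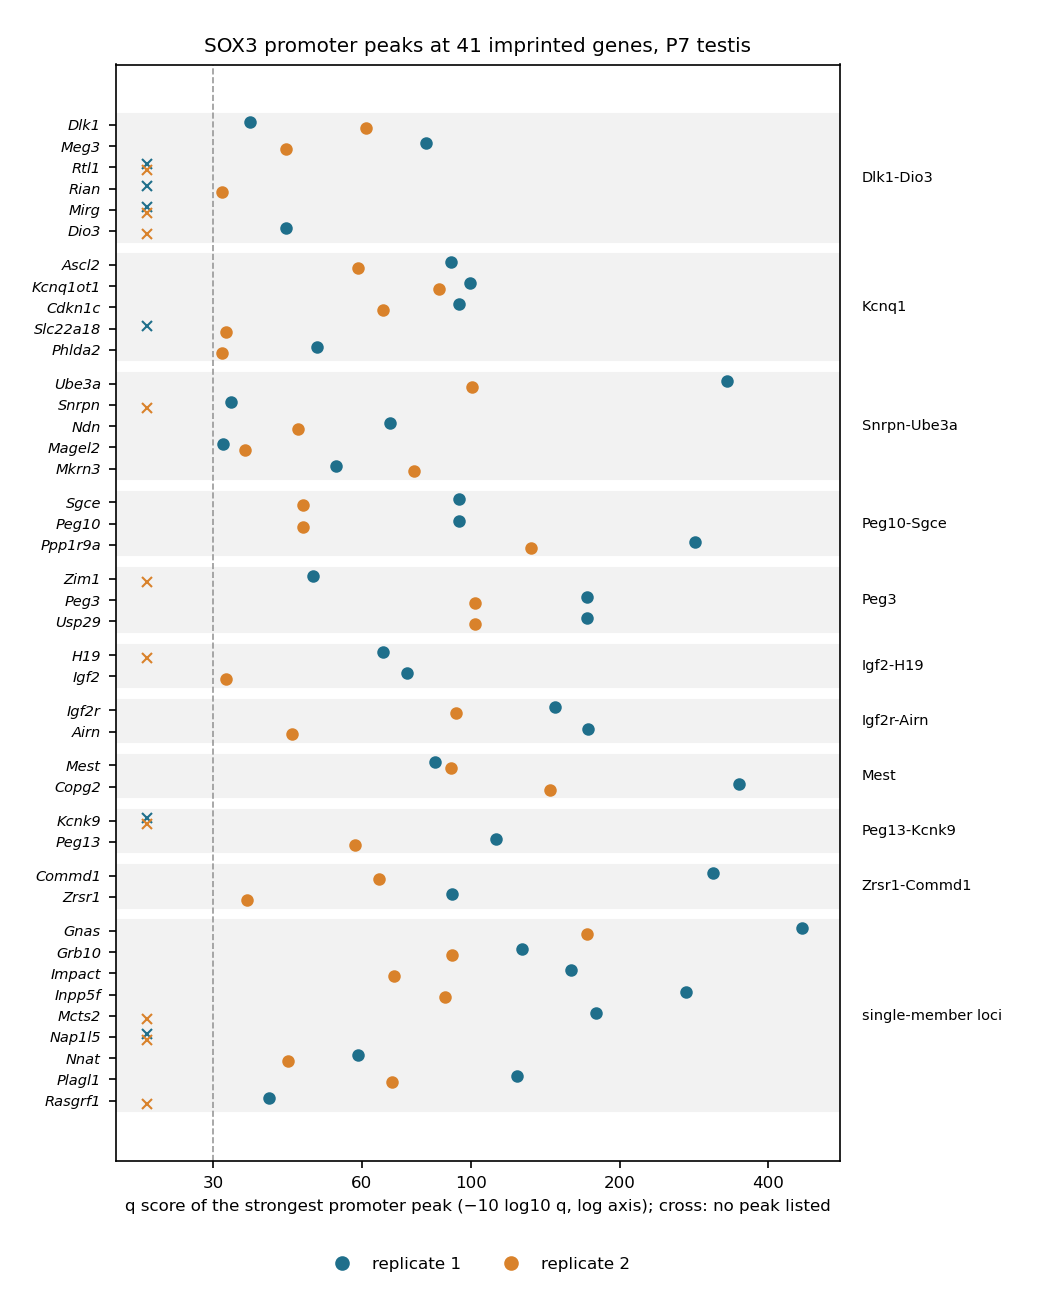
Points give the q score (log axis) of the strongest promoter peak of each imprinted gene in replicate 1 and replicate 2, grouped by locus, and crosses mark genes with no peak listed. Gnas is highest in both replicates at 469 and 172, and the Dlk1-Dio3 genes lie at 80.9 or below or have no peak.

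**Figure D4:**
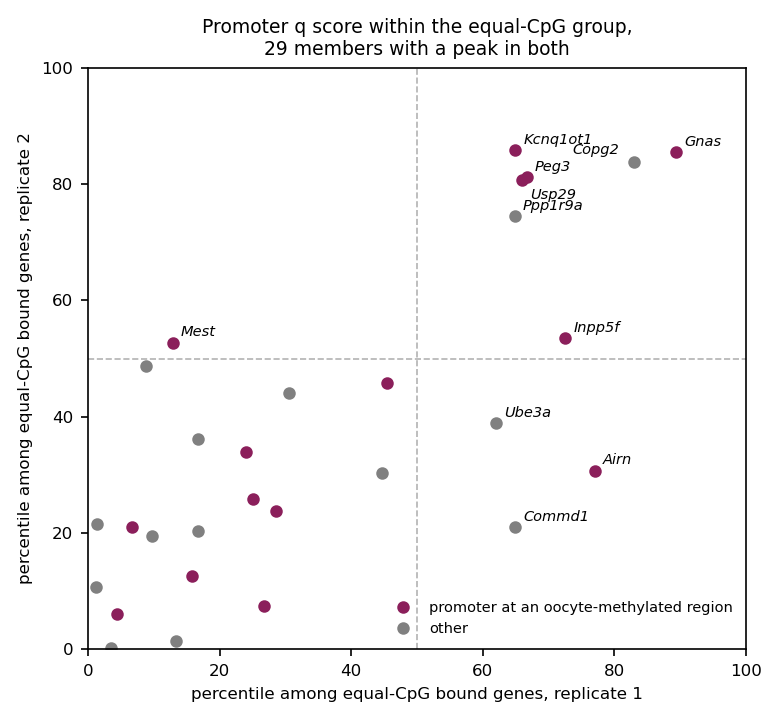
Points are the 29 imprinted genes bound in both replicates, placed by the percentile of their promoter q score among bound genes of equal CpG ratio in replicate 1 and replicate 2. Only Gnas, Copg2, Peg3, Usp29, Kcnq1ot1, Ppp1r9a and Inpp5f lie above the 50th percentile in both.

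The strongest promoter peaks, by mean rank over the replicates, belonged to 8 genes. Gnas, which encodes the stimulatory G protein alpha subunit and several imprinted products, had q scores of 469 in replicate 1 and 172 in replicate 2. Copg2, a coat protein subunit gene next to Mest, had 349 and 145. Ppp1r9a, which encodes the actin-binding protein neurabin, had 285 and 132. These 3 genes were high in both lists, at log2 ratios of 5.18, 4.21 and 4.78 in replicate 1 and 3.63, 2.90 and 3.13 in replicate 2. Ube3a, a ubiquitin ligase gene expressed from the maternal copy in neurons, had 331 and 101. Inpp5f, an inositol phosphatase gene, had 273 and 88.6. Commd1, a copper and endosomal trafficking gene, had 309 and 64.9, so its place among the 8 came mostly from replicate 1. Peg3, a zinc finger gene of growth and maternal behaviour, and Usp29, a ubiquitin-specific protease gene that starts 164 bp away on the other strand, shared 1 peak per replicate with 171 and 102. Copg2, Ppp1r9a, Ube3a and Commd1 are listed as maternally expressed, and their promoters under these strongest peaks are not known as germline differentially methylated regions. The second Commd1 start site lies by Zrsr1, whose promoter is at an oocyte-methylated region, and a peak of 91.4 in replicate 1 covered the start sites of both.

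At the 18 genes with a promoter at an oocyte-methylated region, 15 were bound in both replicates (83.3%, against 81.4% of genes of equal CpG ratio). At the other 23 genes, 14 were (60.9%, against 70.6%). The oocyte-methylated group had median q scores of 124 and 69.6, and the other genes 71.3 and 60.1. Calls and scores were taken over all start sites of a gene, so a score need not belong to the oocyte-methylated promoter. At Inpp5f, 273 and 88.6 came from the first start site, while the second, of the paternally expressed transcript, had 99.6 and 58.4. At Grb10 the strongest peak lay by the second start site in replicate 1 and over the first in replicate 2. In each replicate most bound genes of both groups still fell below the 50th percentile of their equal-CpG group, 11 of 17 and 9 of 15 in the first, 14 of 18 and 14 of 16 in the second. Split by the expressed copy, 18 of 24 paternally expressed genes were bound in both (75.0%, against 78.6% at equal CpG ratio) and 9 of 15 maternally expressed ones (against 67.4%). Gnas and Grb10, which express different copies from different promoters, were bound in both replicates. Of the 34 protein-coding genes 25 were bound in both (73.5%, against 82.4%), and of the 7 non-coding ones 4 (57.1%, against 41.03%). The non-coding genes that were bound in both were Airn, Kcnq1ot1, Meg3 and Peg13.

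At the Igf2r-Airn locus on chromosome 17 both promoters were bound in both replicates. Airn, the long non-coding RNA that silences Igf2r from the paternal copy, had q scores of 173 and 43.3. Igf2r, which encodes the receptor that clears IGF2, had 148 and 93.1. The start sites lie on opposite strands inside each other's genes, so the Airn promoter peak was also an Igf2r gene-body peak, and the Igf2r promoter peak an Airn gene-body peak. The 2 genes had the most gene-body peaks of the list, 4 and 9 in Igf2r and 7 and 3 in Airn, by replicate. Apart from these promoter peaks, no gene-body peak of one replicate overlapped one of the other in these genes. The span, with 3 genes in 0.177 Mb, held 56.3 and 61.98 peaks per Mb, against 32.5 and 21.2 for the chromosome. Each locus span runs between the outer ends of its listed genes. It holds their promoters by definition, and these densities were not matched for gene number.

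**Figure D5:**
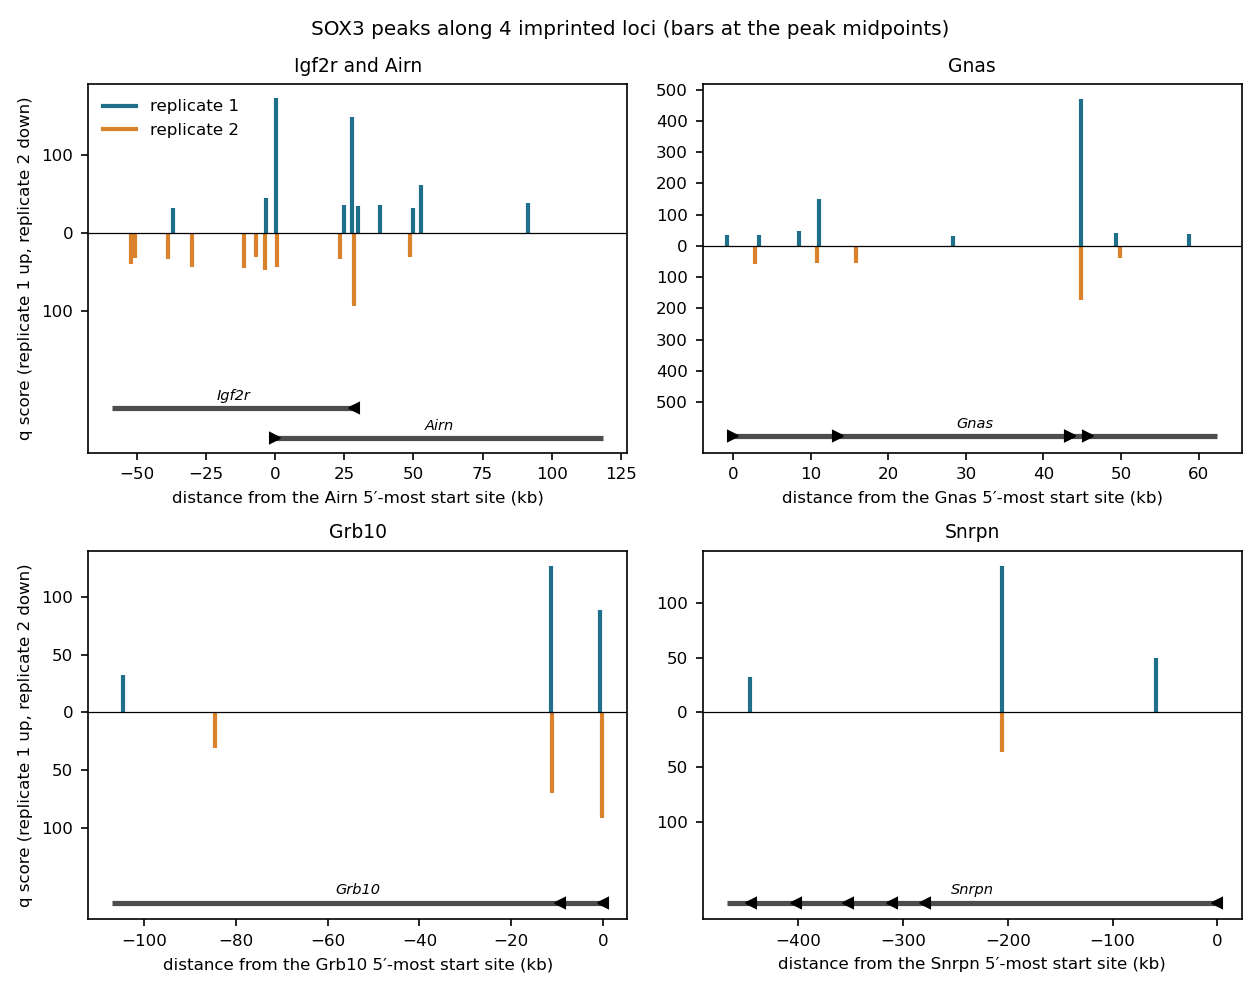
Bars stand at peak midpoints, with height the q score (replicate 1 up, replicate 2 down), along distance in kb from the gene's 5′-most start site at Igf2r and Airn, Gnas, Grb10 and Snrpn. Grey lines are gene spans and arrowheads start sites. The Gnas peak of 469 and 172 stands over the downstream start sites, and the Snrpn peak of 134 and 35.96 stands in an intron between start sites.

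Several imprinted genes have more than 1 promoter, and peaks lay at some of them. Gnas has 5 annotated start sites. The peak of 469 and 172 covered the last 3 of them, at CpG ratios of 0.812, 0.812 and 0.870. The first 2 start sites were covered by no peak, and the nearest ones lay 485 and 1347 bp away in replicate 1 and 1738 and 1854 bp away in replicate 2. The peak 1347 bp away had a q score of 151 and covered a start site of Gnasas1, a gene that overlaps Gnas. It overlapped a replicate 2 peak of 53.3, which lay 2224 bp from the nearest Gnas start site and so outside the promoter window. Grb10, a signalling adaptor gene that restrains growth, had a peak over its first start site, at a CpG ratio of 1.06, with q scores of 88.4 and 91.6. Its second start site lay at a CpG ratio of 0.252, and peaks of 127 and 69.8 began 976 and 993 bp from it. Inpp5f had 273 and 88.6 at its first start site, and 99.6 and 58.4 at the second, which drives the paternally expressed short transcript. At Mest, a hydrolase-family gene expressed from the paternal copy, peaks of 84.3 and 90.9 covered the pair of CpG-rich start sites, and the first start site had only a peak of 35.7 in replicate 1, 1913 bp away. So each of these genes had a stretch bound in both replicates, most often over the CpG-rich start sites.

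At the Zrsr1-Commd1 locus on chromosome 11, the first Commd1 start site had q scores of 309 and 64.9. The second lies by Zrsr1, a splicing factor retrogene within a Commd1 intron, whose strongest promoter peaks had 91.4 and 35.2. In replicate 1 that peak covered the Zrsr1 start site, whereas in replicate 2 it lay 1396 bp away, and the peak over the start site had a q score of 30.1, close to the lowest of the list. On chromosome 6 Peg10, a retrotransposon-derived gene needed for the placenta, and Sgce, the epsilon-sarcoglycan gene, are 102 bp apart head to head and shared a peak of 94.5 and 45.6. The Peg3 locus on chromosome 7 also held Zim1, a maternally expressed zinc finger gene, whose peak of 47.8 was listed in replicate 1 only. The nearest peak to Zim1 in replicate 2 lay 31761 bp away. Peaks shared by neighbours mean that the 35 and 31 bound genes had 33 and 29 distinct strongest peaks.

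At the Kcnq1 locus on chromosome 7, 4 of 5 genes were bound in both replicates (80.0%, against 64.0% of genes of equal CpG ratio). Kcnq1ot1, the paternal non-coding RNA that silences the locus, had q scores of 99.3 and 85.97 at a CpG ratio of 0.461, where 41.5% of other genes were bound in both. Cdkn1c, a cyclin-dependent kinase inhibitor gene, had 94.5 and 66.3, and Ascl2, a trophoblast transcription factor gene, had 90.99 and 58.98. Phlda2, a gene that limits placental growth, had 48.8 in replicate 1 and 31.2, near the threshold of the list, in replicate 2. Slc22a18, a transporter gene, had 31.9 in replicate 2 alone, 1254 bp from its second start site, and none in replicate 1, where the nearest lay 4629 bp away. The locus held 65.3 and 48.5 peaks per Mb, against 29.7 and 19.3 for chromosome 7.

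The Snrpn-Ube3a locus, the region of Prader-Willi and Angelman syndromes in humans, is long and held few peaks. There were 3.13 and 1.57 per Mb over 3.19 Mb, against 29.7 and 19.3 for chromosome 7. The span held 35 genes, against 12 in the 0.536 Mb of the Kcnq1 locus, and the gene density of the chromosome was not computed. Ube3a was strongly bound, as given above. Ndn and Magel2, MAGE-family genes expressed from the paternal copy, had 68.4 and 44.6, and 31.4 and 34.8, and Mkrn3, a ubiquitin ligase gene of puberty timing, had 53.2 and 76.7. Snrpn, which encodes a spliceosomal protein, has 6 start sites in a gene span of 467683 bp. Its last start site, the oocyte-methylated one shown above, had a peak of 32.6 in replicate 1, 254 bp away, and the nearest in replicate 2 lay 238808 bp away. The other 5 start sites had CpG ratios between 0.127 and 0.189 and no promoter peak in either replicate. A peak in an Snrpn intron, chr7:60243878-60244800, had a q score of 134 in replicate 1 and overlapped one of 35.96 at chr7:60244007-60244630 in replicate 2. It lay 72922 bp from the nearest curated Snrpn start site, at a CpG ratio of 0.628, and no other start site lay within 2 kb of it. So the most strongly bound place in Snrpn was not one of its curated promoters.

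At the Igf2-H19 locus, Igf2, the fetal growth factor gene, had strongest promoter peaks of 74.2 and 31.9, which did not overlap each other, and a peak of 31.5 in replicate 2 fell within that of 74.2. H19, the maternal non-coding RNA, had peaks of 66.2 and 57.4 in replicate 1, and in replicate 2 the nearest peak lay 8484 bp away. The peak of 57.4 began 1757 bp from the H19 start site and reached into the interval 2 to 10 kb upstream, which holds the sperm-methylated control region. No peak of replicate 2 lay in that interval.

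The Dlk1-Dio3 locus on chromosome 12 was the least bound of the loci with more than 2 genes, with 2 of 6 genes bound in both replicates, against 45.3% at equal CpG ratio. Dlk1, which encodes a membrane ligand of the Notch family, had 35.7 and 61.2. Meg3, the maternal non-coding RNA, had 80.9 and 42.1 at its first start site and no peak within 2 kb of the second. Dio3, the gene of the enzyme that inactivates thyroid hormone, had 42.2 in replicate 1 only, 817 bp from the start site, and its nearest peak in replicate 2 lay 19913 bp away. The peak of 42.2 covered start sites of the neighbouring genes Dio3os and Mir1247. Rian, a non-coding host of small nucleolar RNAs, had 31.2 in replicate 2 only, at a CpG ratio of 0.0676, where 2.61% of other genes were bound in both. Rtl1, a retrotransposon-derived placental gene (CpG ratio 0.245), and Mirg, a microRNA host (0.288), had no promoter peak, and 14.2% and 17.7% of genes of equal CpG ratio were bound in both. The nearest peaks lay 50153 and 3815 bp from the Rtl1 start site, and 7157 and 130332 bp from that of Mirg. Between Dlk1 and Meg3, where the sperm-methylated control region lies, each replicate listed 1 peak, of 34.1 and 34.0, and they did not overlap. The locus held 15.7 and 19.3 peaks per Mb, against 18.4 and 12.3 for the chromosome.

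Among the remaining loci, Plagl1, a zinc finger gene of growth control, had 124 and 69.1, and Impact, a translation regulator gene, had 159 and 69.6. Nnat, a neuronal membrane protein gene, had strongest peaks of 58.9, 1101 bp from the start site, and 42.6, 2 bp from it, at a CpG ratio of 0.869, and a peak of 40.9 covered the start site in replicate 1. Its strongest peaks placed it at the 4.37 and 6.09 percentile of its equal-CpG group. Peg13, a brain non-coding RNA, had 112 and 58.2, and its neighbour Kcnk9, a potassium channel gene, had no peak. Rasgrf1, a Ras exchange factor gene, had 38.9 in replicate 1 only, and its nearest peak in replicate 2 lay 73112 bp away. The interval 20 to 40 kb upstream of Rasgrf1, where its sperm-methylated control region lies, held 1 peak of 37.9 in replicate 1 and none in replicate 2.

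Of the 12 genes not bound in both replicates, 5 had CpG ratios of 0.6 or above. Among other genes the share bound in both was 78.9% at ratios between 0.6 and 0.7, and higher in each bin above. Nap1l5 is a paternally expressed retrogene at a CpG ratio of 0.703, where 84.4% of other genes were bound in both. Its nearest peaks lay 22746 bp away in replicate 1 and 74972 bp away in replicate 2. Kcnk9 stood at 0.687, where 82.9% were bound, with the nearest peaks 71388 and 155764 bp away. Mcts2, another paternally expressed retrogene, had a q score of 180 in replicate 1 at a CpG ratio of 0.954, where 96.7% of other genes were bound in both, and no promoter peak in replicate 2, where the nearest lay 4092 bp away. Rasgrf1 (0.856) and Dio3 (0.806) had weak peaks of 1 replicate only, against 93.7% and 91.6%. Mcts2, Nap1l5, Zrsr1 and the short Inpp5f transcript are retrogenes with a parent gene on the X chromosome. Reads that fit several places were placed at random by the authors, and the part of read placement in these values was not tested.

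Gene-body peaks, those over the gene span that touch none of the gene's own 2 kb promoter windows, were listed for 20 of the 41 genes in replicate 1 (48.8%) against 35.7% of all genes, for 14 in replicate 2 (34.1%) against 27.9%, and for 14 in both (34.1%) against 22.3%. Among genes of equal length the shares were 39.6%, 32.4% and 26.6%. The 38 and 28 distinct gene-body peaks were weak, with median q scores of 37.9 and 34.2. Of them 6 in each replicate overlapped a peak of the other replicate (15.8% and 21.4%, against 21.01% and 37.1% of the gene-body peaks of all genes), and 7 and 4 lay within 2 kb of another gene's start site. Gene-body peaks of the replicates overlapped each other at 5 of the 41 genes, Igf2r, Airn, Copg2, Igf2 and Snrpn (12.2%), near the 13.3% of all genes. With a q score above 60 asked for in both replicates, only Airn had gene-body peaks (1 gene, against 2.73% of all genes), and these were the Igf2r promoter peaks. After Igf2r and Airn, Gnas had the most, 5 and 2, followed by Kcnq1ot1 with 2 and 3. Dlk1, Inpp5f, Meg3, Ppp1r9a and Snrpn shared the fifth place with 3 in all. Counted per gene, 24 of 39 gene-body peaks in replicate 1 and 21 of 29 in replicate 2 touched no exon of that gene. These were 61.5% and 72.4%, against 64.3% and 67.2% over all genes.

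SOX3 ChIP-nexus, in which an exonuclease trims the precipitated DNA to the protein contact, gave 111 and 19 regions. None lay at a promoter or in the body of the 41 genes in either replicate. Across all genes they touched the promoters of 0.206% and 0.00382% and the bodies of 0.0917% and 0.0229%, so at this number of regions the assay could not show whether the imprinted genes differ. Per the study's reporting summary, only a very small part of the reads in both of these libraries was unique.

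Neighbouring and related genes were counted in the same way. Of 32 other genes in imprinted regions that matched by symbol, 16 were bound at the promoter in both replicates, against 60.4% of genes of equal CpG ratio. Klf14, a retrogene-derived transcription factor gene with a CpG ratio of 1.03, Slc22a3, an organic cation transporter gene (0.631), and Tnfrsf23, a decoy receptor gene (0.583), were the most CpG-rich of those with no promoter peak in either replicate. Of 12 genes whose products set, protect or read imprints, such as DNA methyltransferases and ZFP57, 10 were bound in both, against 73.7%. The remaining pair, named after their values were seen, were Dppa3, which guards maternal methylation in the zygote, with 44.8, and Ctcfl, the testis paralogue of CTCF, with 49.8, each in replicate 1 only.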

How the data were processed

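SOX3 ChIP-seq peaks (2 replicates) and SOX3 ChIP-nexus regions (2 replicates) of whole testis were analysed. The other 15 samples named in the labels were not analysed here. Per the study's methods, the authors aligned reads to mm10 with Novoalign, placing reads that fit several places at random, removed duplicates with Picard, and called peaks with USeq and MACS, after which replicates were also merged and filtered against each other. The deposited ChIP-seq lists are separate for each replicate, and their threshold is the one stated for USeq. The submitters' processing notes name Novoalign, Picard, bedtools and MACS2 2.1.1. The deposited ChIP-seq lists (58351 and 38832 peaks) hold a score of 10 times −log10 p, a q score of 10 times −log10 q above 30 and a log2 ratio of ChIP over input. The lists have no header, so these column meanings were inferred from the values and the methods. The deposited ChIP-nexus files are MACS narrowPeak lists with a fold enrichment ratio, −log10 p and q values and a score. The lists hold no read counts. Per the read totals in the study's reporting summary, replicate 2 was the more deeply sequenced SOX3 ChIP-seq library, although it has fewer peaks. Within a list, 98.7% and 98.6% of peaks share both their q score and their log2 ratio with another peak.

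RefSeq curated transcripts on GRCm38.p6 (45756 transcripts of 26182 genes) gave start sites and gene spans. Overlaps were computed with Python 3.11.15, numpy 2.4.6 and pysam 0.24.0, and tested on simulated peaks against bedtools 2.31.1, where 100% of 200 planted promoter overlaps were recovered. Genes of equal CpG ratio lay within 0.05 of a member, and genes of equal length within a factor of 1.25. Loci, expressed copies and oocyte-methylated promoters were assigned from general knowledge. The genes and lists were chosen with earlier results of these data known. Named in full were the 8 genes with the highest mean rank of promoter q score, every gene bound in 1 replicate or none, the 5 genes with most gene-body peaks, and up to 3 unbound genes of each related list with the highest CpG ratio. With 1 group of 2 replicates no test was made. Alternatives were a q score above 60, peak midpoints, windows of 1 and 5 kb, GENCODE or predicted RefSeq transcripts, a single start site, overlapping peaks in both replicates, other matching rules, and leaving out each replicate.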

Additional observations from a re-analysis of the deposited data

How the results depend on the processing

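The number of genes bound at the promoter in both replicates was 29, and lay between 29 and 31 with midpoints, other windows, other transcript sets, a single start site or overlapping peaks. With a q score above 60 it was 15, and the share at equal CpG ratio then was 53.0% in place of 75.3%, since fewer peaks enter the count. Taking replicates alone gave 31 to 35 genes, and shares at equal CpG ratio of 76.9% to 84.99%. The number with a gene-body peak in both, 14, was 1 with a q score above 60 (against 2.73% of all genes) and 5 with overlapping peaks, and 14 to 20 in single replicates, with shares at equal length of 32.4% to 39.6%. Other matching by CpG window, gene type, autosomes or number of start sites (the last chosen after seeing the data) gave 70.1% to 76.0%. Of the 28 alternatives 21 left the value close to that reported. For 18 of 41 genes the count of replicates bound at the promoter, 0 included, did not change under the alternatives of threshold, midpoint, window, transcript set and start site. A q score above 60 took calls from 20 genes, windows of 1 kb from Slc22a18, while windows of 5 kb added calls at Mcts2, Rtl1 and Slc22a18, predicted transcripts at Rtl1 and Slc22a18, and GENCODE at Mirg. No paired analysis was possible because there is 1 group and no test. The lists hold no counts, so how far depth limits a missing peak was not tested, and 2 replicates give little measure of spread.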
